A study of Mus musculus with 24 samples.

Results

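The clustered protocadherins are 58 of the 27080 mouse genes with a read count in this series. They were chosen by gene name alone: every Entrez identifier was matched to its RefSeq symbol, and the members are the Pcdha, numbered Pcdhb and Pcdhga, Pcdhgb and Pcdhgc genes, 14 in the alpha cluster, 22 in the beta cluster and 22 in the gamma cluster. All 58 such genes of RefSeq were found among the counts. The cells were basal cells of the mammary gland, taken without treatment from C57BL/6 females and sorted by Lgr5, a receptor for R-spondins, and Tspan8, a tetraspanin, into Lgr5+Tspan8hi, Lgr5+Tspan8-, Lgr5-Tspan8hi and Lgr5-Tspan8- subpopulations. Chromatin of each subpopulation was precipitated for H3K4me3, a histone mark of active and poised gene starts, and for H3K27me3, the mark laid down by Polycomb repressive complexes, with 2 libraries per subpopulation and mark. The labels give neither the age of the females nor whether the libraries of a subpopulation came from separate animals, so p-values measure the spread between these libraries, which may be technical. The inputs were not analysed here, and no value is relative to input.

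Protocadherins of the clusters are cell surface adhesion proteins, best known from neurons, where each cell displays its own set of isoforms and cells with matching sets recognise each other. In the alpha and gamma clusters each variable first exon has its own promoter and carries the extracellular part, and it is spliced to constant 3′ exons that give all isoforms of the cluster the same cytoplasmic tail. Beta genes have a single exon and no constant tail. Most variable exons, called alternate isoforms, are chosen at random by each neuron, whereas the C-type isoforms at the ends of the alpha and gamma clusters are used more uniformly. In most other tissues the clusters are known as largely silent, under DNA methylation and repressors such as Smchd1, with Ctcf and cohesin linking a chosen promoter to distant enhancers.

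All members lie on the plus strand of chromosome 18 in build GRCm38, which mm10 denotes. The alpha cluster runs from 36930285 to 37188897 (258.6 kb), the beta cluster from 37264998 to 37521419 (256.4 kb) and the gamma cluster from 37661775 to 37841873 (180.1 kb). Each of the 36 alpha and gamma genes has 4 exons in RefSeq, of which the last 3 are common to its cluster (37156155 to 37188897 in alpha, 37825021 to 37841873 in gamma). Each of the 22 beta genes has 1 exon. Of all members 5 are C-type, namely Pcdhac1 and Pcdhac2 in alpha and Pcdhgc3, Pcdhgc4 and Pcdhgc5 in gamma. The other 53 members are the 12 alternate alpha genes, the 22 beta genes and the 19 alternate gamma genes, made of 12 of type A and 7 of type B. One of these, Pcdhgb8, is annotated as a transcribed pseudogene.

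Within the alpha cluster and within the gamma cluster the genes overlap, up to ends at or near the same position, which bears on what the counts hold. In H3K27me3 the count of an alpha or gamma gene never exceeded that of the gene before it in its cluster: 104 of 104 steps in alpha and 168 of 168 in gamma, over all 8 libraries, did not rise. Each such count was therefore read as holding the reads from the start of the gene to the end of its cluster. On that reading the reads of the last gene were counted again in every gene before it. The predicted gene Gm37013, which starts 41 bases from Pcdha4 and spans 889226 bases, went against counting every gene over its RefSeq span. It had 4 to 55 H3K27me3 reads per library, against 795 to 2227 at Pcdha4, and the reason was not tested. With alpha and gamma counts read as above, the difference between neighbouring counts gives the reads of the stretch from each start to the next. These non-overlapping stretches, together with the beta genes, are used below for H3K27me3 levels. In H3K4me3 the counts rose at 57 of 104 steps in alpha and 83 of 168 in gamma. They were read as counts around each start, since Pcdha4 and the predicted gene Gm37013, whose starts lie 41 bases apart, had equal H3K4me3 counts in 7 of 8 libraries. The nearest starts within a cluster lie 3779 bases apart, and how far a counted window reached is not given in the sources used here.

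Library totals ran from 1472251 to 4740371 counts for H3K4me3 and from 2639862 to 6972189 for H3K27me3. One library of each mark stood apart, Lgr5-Tspan8hi replicate 1, with 5844 genes at 0 in H3K4me3 against 662 to 3007 in the other 7, and 4191 in H3K27me3 against 1121 to 1557. The basal keratin genes Krt5 and Krt14 averaged 141 and 131 CPM of H3K4me3 (CPM stands for reads per gene scaled to a common library size with TMM factors) over 8 libraries. Of the same list of 10 basal and myoepithelial marker genes, Mylk averaged 5.82 and Trp63 1.78 CPM. In H3K4me3, 8 of these 10 lay above the median of all genes, as did 9 of 10 luminal marker genes. Sums ran from 789 to 1063 CPM for the basal list and from 711 to 839 CPM for the luminal list. Since the clusters are best known from neurons, 10 Schwann cell and neural marker genes were summed: they held 376 to 423 CPM of H3K4me3 in all, and the immune marker genes held 5.10 to 19.9 CPM. At the start of Tspan8, H3K4me3 averaged 80.7 ± 8.89 CPM in the Tspan8hi libraries and 25.2 ± 4.17 CPM in the Tspan8- libraries (SD, n = 4 each; log2 fold change 1.68, edgeR quasi-likelihood adjusted p = 3.25e-11), in the order of the labels. For the sorting genes Lgr5 and Tspan8, the smallest edgeR adjusted p between Lgr5+ and Lgr5- cells was 0.961 in H3K4me3 and 0.0536 in H3K27me3. Neither was under 0.05, so this check did not bear out the Lgr5 labels at that threshold. In each mark 1 of the 2 genes had an unadjusted edgeR p under 0.05, where 4.98% and 7.19% of all genes did. The median log2 fold change over the 2 genes was 0.20 in H3K4me3 and -0.48 in H3K27me3. Each library averages many cells, so a smaller share of cells with a mark and less of the mark per cell cannot be told apart.

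H3K4me3 set 3 of the 5 C-type genes apart from the rest of the clusters. Pcdhgc3, which shapes dendrites in neurons and binds the Wnt pathway protein Axin1 there, had the highest level of all members, with 101 and 103 CPM in Lgr5+Tspan8hi, 109 and 114 CPM in Lgr5+Tspan8-, 110 and 127 CPM in Lgr5-Tspan8hi and 89.8 and 112 CPM in Lgr5-Tspan8- libraries. Its mean of 108 ± 10.8 CPM (SD, n = 8) lay above that of 93.5% of all genes. Its Tspan8hi libraries overlapped its Tspan8- libraries, and its Lgr5+ libraries overlapped its Lgr5- libraries. No library stood far from the others.

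Pcdhgc4, known for its part in the survival of neurons, came second at 48.4 and 73.5 CPM in Lgr5+Tspan8hi, 62.3 and 76.0 CPM in Lgr5+Tspan8-, 69.7 and 69.8 CPM in Lgr5-Tspan8hi and 82.8 and 71.1 CPM in Lgr5-Tspan8- libraries, a mean of 69.2 ± 10.2 CPM (SD, n = 8). Pcdhac2, known from the spacing of serotonergic axons, had 48.4 and 39.7 CPM in Lgr5+Tspan8hi, 57.6 and 85.6 CPM in Lgr5+Tspan8-, 45.6 and 61.1 CPM in Lgr5-Tspan8hi and 58.9 and 60.6 CPM in Lgr5-Tspan8- libraries, a mean of 57.2 ± 13.9 CPM (SD, n = 8). These means lay above 78.4% and 70.7% of all genes. Pcdhgc3 was above Pcdhgc4 in 8 of 8 libraries, while Pcdhgc4 was above Pcdhac2 in 6 of 8, so the order of these last genes was not fixed across libraries.

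The remaining C-type genes were not alike. Pcdhgc5 had 15.8 and 16.6 CPM in Lgr5+Tspan8hi, 16 and 28.1 CPM in Lgr5+Tspan8-, 34.6 and 25.6 CPM in Lgr5-Tspan8hi and 18.7 and 17.9 CPM in Lgr5-Tspan8- libraries. Its mean of 21.7 ± 6.96 CPM (SD, n = 8) lay close to the median gene, at 22.7 CPM. Pcdhac1, the other C-type gene of alpha, had only 5.14 and 7.82 CPM in Lgr5+Tspan8hi, 7.29 and 9.59 CPM in Lgr5+Tspan8-, 5.93 and 6.31 CPM in Lgr5-Tspan8hi and 6.41 and 6.12 CPM in Lgr5-Tspan8- libraries, which is the level of an alternate isoform. Within the alpha cluster, then, one C-type start carried H3K4me3 above the median gene and the other did not, in 8 of 8 libraries in the same order.

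The 53 members that are not C-type averaged between 2.13 and 16 CPM, with a median of 6.67 CPM, and none of them reached the median gene. In every one of the 8 libraries Pcdhgc3, Pcdhgc4 and Pcdhac2 lay above each of these 53 members, Pcdhgc5 did so in 5 libraries and Pcdhac1 in 0. Set against the median of the 53 in the same library, Pcdhgc3 was 12.8-fold to 24.2-fold higher, Pcdhgc4 was 7.53-fold to 15.3-fold higher, Pcdhac2 was 6.35-fold to 11.4-fold higher, Pcdhgc5 was 2.44-fold to 7.60-fold higher and Pcdhac1 lay between 0.80 and 1.30 times that median. Counts behind these values were small for the alternate isoforms, from 0 to 18 reads at Pcdha6, against 154 to 531 reads at Pcdhgc3, and intervals and floors from reads cover counting error only.

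**Figure D1:**
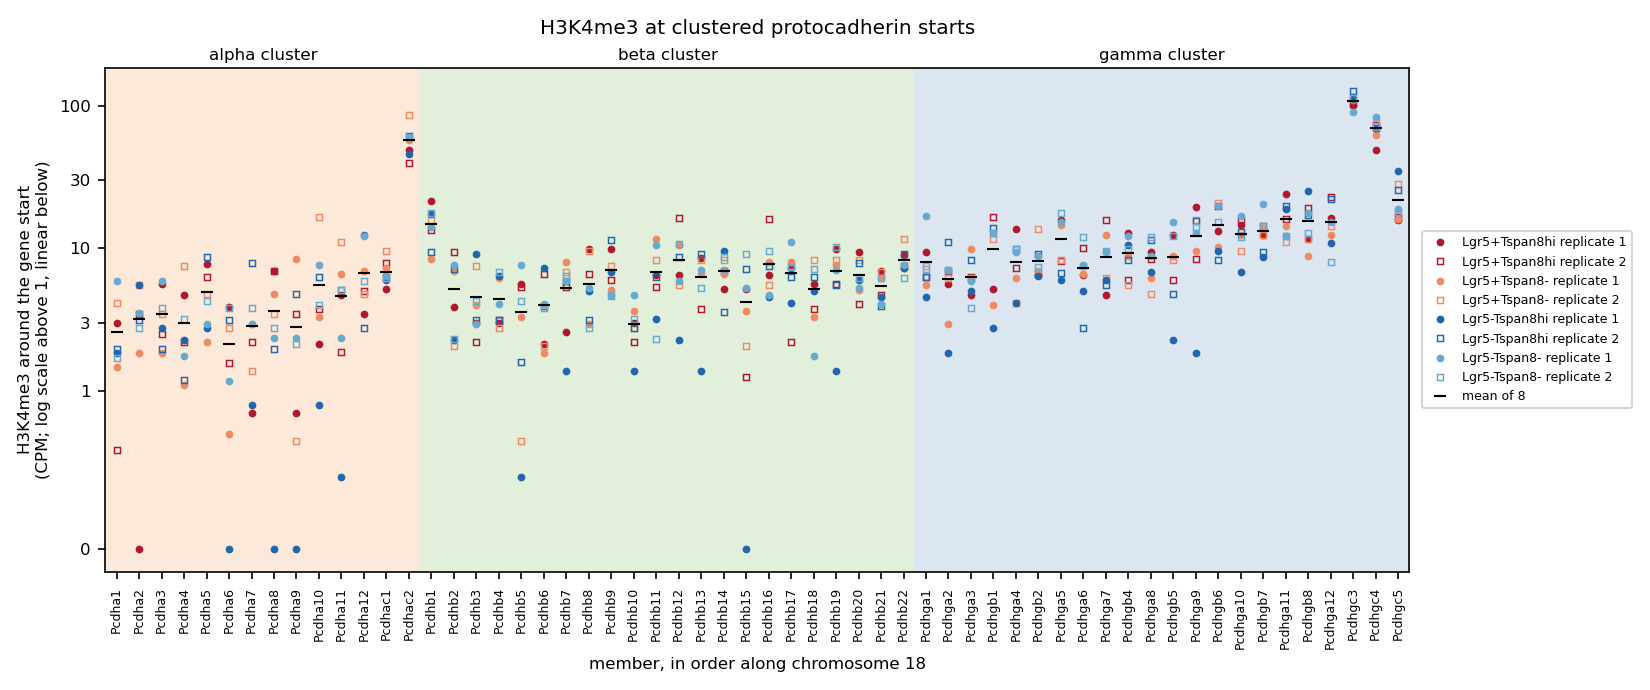
H3K4me3 around the start of each of the 58 members, in CPM (vertical axis, logarithmic above 1 and linear below), in the order of the genes along the chromosome. Each point is 1 library, filled for replicate 1 and open for replicate 2, coloured by subpopulation, and the dash is the mean of 8; Pcdhgc3, Pcdhgc4 and Pcdhac2 stand above all members that are not C-type.

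Among the members that are not C-type the clusters also differed in H3K4me3. The mean per start was 10.5 ± 1.66 CPM in gamma, 6.19 ± 0.607 CPM in beta and 3.79 ± 0.866 CPM in alpha (SD, n = 8), and gamma lay above beta and beta above alpha in 8 of 8 libraries. The ratio of gamma to alpha ran from 1.78 to 3.5 across libraries. Within gamma the level climbed along the cluster: over the 19 alternate gamma genes, Spearman's rho between the mean level and the order of the gene was 0.87, and it ran from 0.48 to 0.70 in single libraries. The genes share their libraries and their locus, and neighbouring starts may share spread-out signal, so this is a description of the row of genes and carries no test.

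The lowest alternate gamma gene, Pcdhga2 near the start of the cluster, had 5.57 and 6.88 CPM in Lgr5+Tspan8hi, 2.92 and 6.16 CPM in Lgr5+Tspan8-, 1.82 and 11 CPM in Lgr5-Tspan8hi and 7.00 and 6.97 CPM in Lgr5-Tspan8- libraries. The highest, Pcdhga11, averaged 16 ± 4.50 CPM, and its near neighbours Pcdhgb8 and Pcdhga12 averaged 15.4 ± 5.27 and 15.3 ± 5.14 CPM (SD, n = 8), differences smaller than their spread. In the beta cluster the first gene, Pcdhb1, had 21.4 and 13.4 CPM in Lgr5+Tspan8hi, 8.38 and 15.8 CPM in Lgr5+Tspan8-, 17.3 and 9.46 CPM in Lgr5-Tspan8hi and 14.0 and 17.5 CPM in Lgr5-Tspan8- libraries. The lowest beta gene, Pcdhb10, had 3.00 and 2.19 CPM in Lgr5+Tspan8hi, 3.65 and 2.74 CPM in Lgr5+Tspan8-, 1.37 and 2.76 CPM in Lgr5-Tspan8hi and 4.67 and 3.17 CPM in Lgr5-Tspan8- libraries, below every library of Pcdhb1.

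Alpha held the lowest levels of all. Pcdha6 had 3.85 and 1.56 CPM in Lgr5+Tspan8hi, 0.729 and 2.74 CPM in Lgr5+Tspan8-, 0 and 3.15 CPM in Lgr5-Tspan8hi and 1.17 and 3.80 CPM in Lgr5-Tspan8- libraries. The library with no read was Lgr5-Tspan8hi replicate 1, where a count of 0 allows up to 1.37 CPM, taken as 3 counts. In that library 4 members were at 0 in H3K4me3, against 1 in Lgr5+Tspan8hi replicate 1 and 0 in each of the other 6.

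The CpG content around the starts and the H3K4me3 levels were not ordered alike across members. The ratio of observed to expected CpG in the 1000 bases around each start had a median of 0.457 over 25185 genes. It ran from 0.638 to 0.803 in the alternate alpha genes, which had the lowest H3K4me3, from 0.158 to 0.556 in beta, and from 0.319 at Pcdhga12 to 0.896 at Pcdhga11 among the alternate gamma genes, which had like H3K4me3. Of the C-type genes, Pcdhgc3 had 0.788, Pcdhac2 0.709, Pcdhgc4 0.672, Pcdhac1 0.607 and Pcdhgc5 0.247. Over the 58 members rho between this ratio and H3K4me3 was 0.04, as a description of members that share their locus and libraries. The GC content of the window was 62.9% at Pcdhac2, 58.4% at Pcdhgc3 and 57.4% at Pcdhac1, above the median gene at 53.1%, and below it at 52.8% for Pcdhgc5 and 50.4% for Pcdhgc4.

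The first exons of some members resemble each other closely, which bears on where short reads can be placed. Of all 50-base words in a first exon, the share found again elsewhere in the clusters was 10.2% to 26.5% in the alternate alpha genes, with the highest share at Pcdha6, 0 to 12% in beta, 2.69% to 18.1% in gamma B, 0 to 4.25% in gamma A and 0 in all C-type genes. How reads with several matching places were treated is not given in the sources used here, and their part in the low counts of the alpha genes was not tested.

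H3K27me3 gave the opposite picture at the gamma end of the clusters and a broad coverage elsewhere. In CPM per kb of stretch or gene, all 53 units that are not C-type lay above the median gene, at 0.603, with a median of 1.82. The alternate alpha stretches ran from 0.952 to 3.31, the beta genes from 1.20 to 2.66 and the alternate gamma stretches from 0.674 to 2.19 CPM per kb. The highest was the stretch that starts at Pcdha10, at 3.31 ± 0.485 CPM per kb (SD, n = 8), above 92.6% of 25189 genes with a known length, and the next unit was Pcdhb1 at 2.66 CPM per kb.

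At the C-type end of gamma the mark was low. The stretches of Pcdhgc3, Pcdhgc4 and Pcdhgc5 averaged 0.411 ± 0.199, 0.419 ± 0.265 and 0.282 ± 0.110 CPM per kb (SD, n = 8), all below the median gene, with 9 to 32, 3 to 21 and 11 to 51 reads per library. From Pcdhgc3 to the end of the cluster, 35.464 kb in all, H3K27me3 was 0.413 and 0.300 CPM per kb in Lgr5+Tspan8hi, 0.269 and 0.235 CPM per kb in Lgr5+Tspan8-, 0.287 and 0.327 CPM per kb in Lgr5-Tspan8hi and 0.574 and 0.246 CPM per kb in Lgr5-Tspan8- libraries. The first 11 stretches of the cluster held 1.61 to 2.00 CPM per kb in the same libraries, and starts 12 to 19 held 1.07 to 1.45. These divisions were drawn after the values were seen. Starts 12 to 19 cover 75.439 kb, of which the Pcdhga12 stretch is 40.830 kb. The other stretches of that group, from Pcdhgb5 to Pcdhgb8, averaged 1.46 to 2.13 CPM per kb, beside 1.81 over the first 11 together. The lower level of starts 12 to 19 thus lay mainly in the Pcdhga12 stretch. The ratio of the C-type end to the first 11 stretches lay between 0.134 and 0.301 in all 8 libraries. The Pcdhga12 stretch, the last alternate one, runs to Pcdhgc3 and is already counted in starts 12 to 19. It stood between the C-type end and the first 11 stretches, at 0.674 ± 0.0594 CPM per kb over 40.830 kb.

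The C-type end of alpha did not share this. The stretch of Pcdhac1 averaged 1.67 ± 0.171 and that of Pcdhac2 1.27 ± 0.223 CPM per kb, above 77.5% and 69.6% of genes. Over both, H3K27me3 was 1.64 and 1.56 CPM per kb in Lgr5+Tspan8hi, 1.60 and 1.57 CPM per kb in Lgr5+Tspan8-, 1.08 and 1.5 CPM per kb in Lgr5-Tspan8hi and 1.63 and 1.35 CPM per kb in Lgr5-Tspan8- libraries, between 0.673 and 1.21 times the alternate alpha stretches. Pcdhac2 thus lay above the median gene in both marks, whereas Pcdhgc3 and Pcdhgc4 lay above it in H3K4me3 and below it in H3K27me3. Whether both marks lay on the same chromatin at Pcdhac2 was not tested.

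Among beta genes, which do not overlap, Pcdhb1 had the highest H3K27me3 as well as the highest H3K4me3 of its cluster, with 2.71 and 2.36 CPM per kb in Lgr5+Tspan8hi, 1.78 and 3.55 CPM per kb in Lgr5+Tspan8-, 2.76 and 2.01 CPM per kb in Lgr5-Tspan8hi and 3.01 and 3.12 CPM per kb in Lgr5-Tspan8- libraries. Pcdhb6 had the lowest, with 1.21 and 1.57 CPM per kb in Lgr5+Tspan8hi, 1.17 and 1.25 CPM per kb in Lgr5+Tspan8-, 1.26 and 1.60 CPM per kb in Lgr5-Tspan8hi and 0.711 and 0.881 CPM per kb in Lgr5-Tspan8- libraries. Each library of Pcdhb1 lay above each library of Pcdhb6. Over the 22 beta genes rho between the marks was 0.16, and over all 58 members it was -0.24, as descriptions of units that share libraries and locus.

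The last stretch of gamma, that of Pcdhgc5, had 0.380 and 0.226 CPM per kb in Lgr5+Tspan8hi, 0.258 and 0.200 CPM per kb in Lgr5+Tspan8-, 0.186 and 0.318 CPM per kb in Lgr5-Tspan8hi and 0.497 and 0.195 CPM per kb in Lgr5-Tspan8- libraries, the lowest mean of the 58 units. The last stretch of alpha, that of Pcdhac2, had 1.44 and 1.40 CPM per kb in Lgr5+Tspan8hi, 1.36 and 1.41 CPM per kb in Lgr5+Tspan8-, 0.814 and 1.33 CPM per kb in Lgr5-Tspan8hi and 1.38 and 1.04 CPM per kb in Lgr5-Tspan8- libraries. No library of one reached a library of the other.

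**Figure D2:**
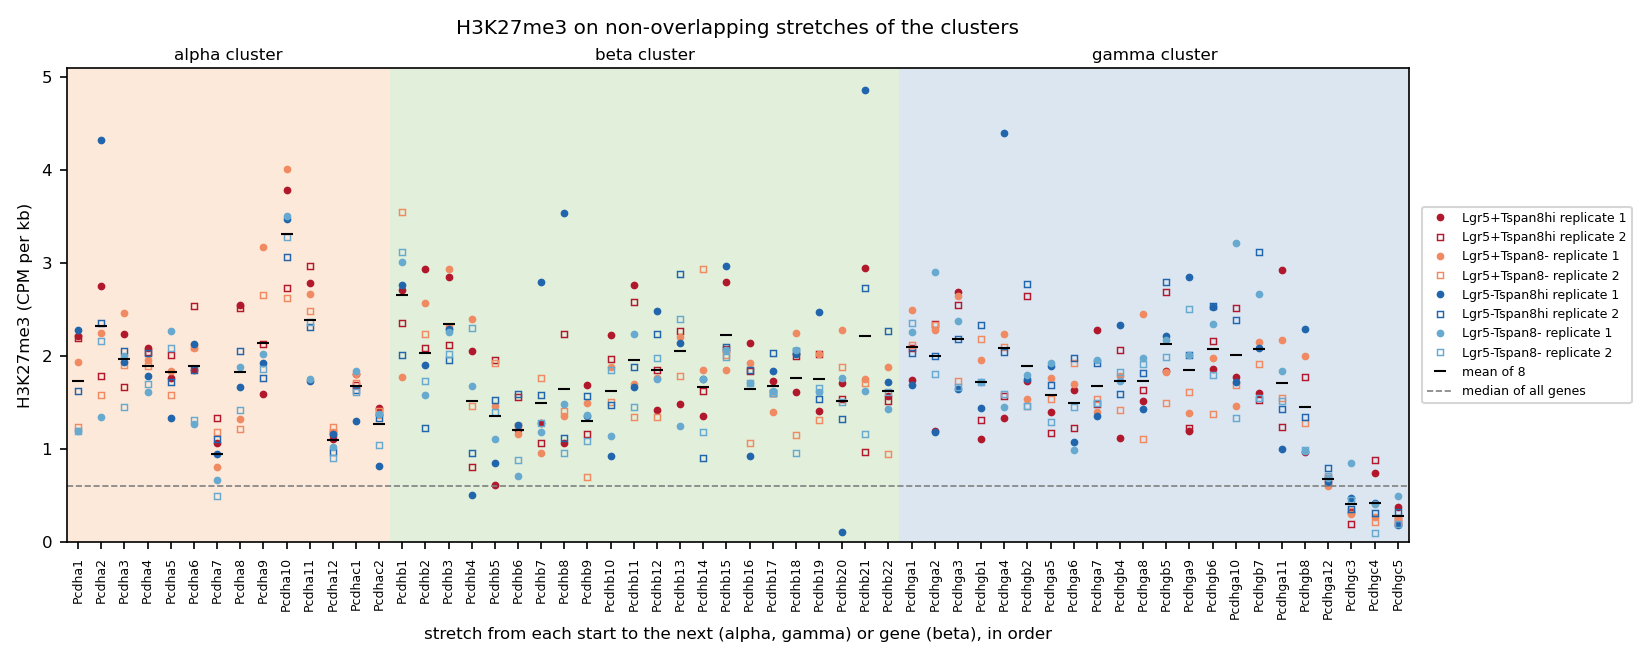
H3K27me3 in CPM per kb (vertical axis, from 0) on the stretch from each alpha or gamma start to the next and on each beta gene, in order along the chromosome, with the median of all genes as a dashed line. Points are libraries as coloured in the legend and the dash is the mean of 8; the units of Pcdhgc3, Pcdhgc4 and Pcdhgc5 at the far right average below the dashed line.

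Over whole clusters, which for alpha and gamma are the counts of Pcdha1 and Pcdhga1, H3K27me3 was densest on the beta genes. The mean was 1.52 ± 0.123 CPM per kb in alpha, 1.76 ± 0.112 in beta and 1.28 ± 0.106 in gamma (SD, n = 8), and beta lay above alpha and alpha above gamma in 8 of 8 libraries. The gamma cluster, read as Pcdhga1, had 1.18 and 1.25 CPM per kb in Lgr5+Tspan8hi, 1.32 and 1.17 CPM per kb in Lgr5+Tspan8-, 1.29 and 1.44 CPM per kb in Lgr5-Tspan8hi and 1.42 and 1.17 CPM per kb in Lgr5-Tspan8- libraries. Beta values cover the genes alone, while alpha and gamma values also cover the DNA between starts. Unit by unit beta was not the densest. The median was 1.89 CPM per kb over alternate alpha stretches, 1.85 over alternate gamma stretches and 1.67 over beta genes. Most of the nearest genes outside the clusters had less H3K27me3 than the cluster means, but they do not locate the edges of the coverage. The C-type stretches of gamma, at 0.282 to 0.419 CPM per kb, were already as low as most of the genes after gamma. Of the 5 nearest before alpha (Wdr55, Dnd1, Hars, Hars2 and Zmat2) the highest had 0.234 CPM per kb, and Diaph1, Hdac3, Rell2 and Fchsd1 after gamma had 0.223 to 0.456 CPM per kb. Arap3, the fifth gene after gamma, had 1.97 CPM per kb. Between beta and gamma, the mitochondrial carrier gene Slc25a2 had 2.06 ± 0.681 CPM per kb, a level within the range of the beta genes, and Taf7, a subunit of the general transcription factor TFIID, had 0.964 ± 0.303 CPM per kb with 58.6 CPM of H3K4me3.

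In H3K4me3 the levels of every cluster overlapped between Tspan8hi and Tspan8- libraries and between Lgr5+ and Lgr5- libraries. The alternate alpha genes averaged 3.64 and 3.31 CPM in Lgr5+Tspan8hi, 3.49 and 5.48 CPM in Lgr5+Tspan8-, 2.47 and 4.07 CPM in Lgr5-Tspan8hi and 4.23 and 3.59 CPM in Lgr5-Tspan8- libraries. The alternate gamma genes averaged 11.5 and 11.6 CPM in Lgr5+Tspan8hi, 9.15 and 9.73 CPM in Lgr5+Tspan8-, 7.51 and 10.7 CPM in Lgr5-Tspan8hi and 12.8 and 11.1 CPM in Lgr5-Tspan8- libraries. The C-type alpha genes averaged 26.8 and 23.8 CPM in Lgr5+Tspan8hi, 32.4 and 47.6 CPM in Lgr5+Tspan8-, 25.8 and 33.7 CPM in Lgr5-Tspan8hi and 32.7 and 33.4 CPM in Lgr5-Tspan8- libraries. Each of these averages lay above that of the alternate alpha genes in its library. The C-type gamma genes averaged 55.2 and 64.3 CPM in Lgr5+Tspan8hi, 62.3 and 72.8 CPM in Lgr5+Tspan8-, 71.6 and 74.1 CPM in Lgr5-Tspan8hi and 63.8 and 67.1 CPM in Lgr5-Tspan8- libraries. The beta genes averaged 4.85 CPM in Lgr5-Tspan8hi replicate 1 and 6.04 to 6.83 CPM in the other 7 libraries. In each of these sets of genes the subpopulations with Tspan8hi overlapped those without it, and likewise for Lgr5.

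**Figure D3:**
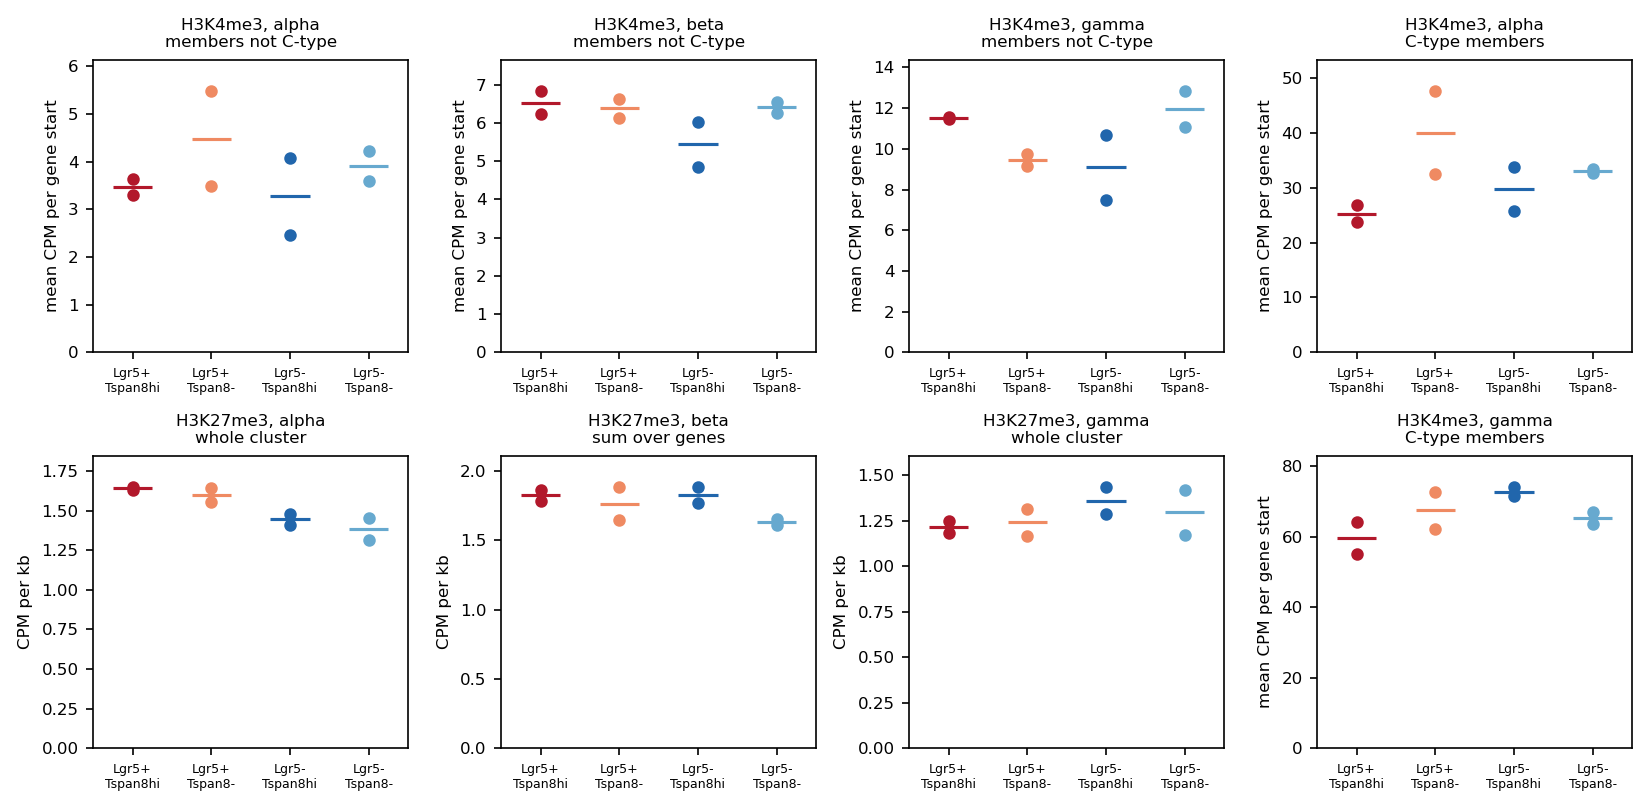
Cluster levels in each library by subpopulation: mean H3K4me3 per start in CPM, for members that are not C-type and for C-type members, and H3K27me3 in CPM per kb. Points are libraries and the line is their mean; every axis starts at 0, and the one panel in which the 4 Lgr5+ libraries all lie above the 4 Lgr5- libraries is H3K27me3 of alpha, from 1.55 against at most 1.48.

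Each mark was fitted across all its genes, and genes with an adjusted p below 0.05 in edgeR's quasi-likelihood test are said to pass. Of the 58 members, 55 entered the H3K4me3 fit and all 58 the H3K27me3 fit; Pcdha6, Pcdha7 and Pcdhb10 had too few H3K4me3 reads. Between Tspan8hi and Tspan8- cells, 0 of 55 members passed in H3K4me3, where 0.0473% of all genes did, and 0 of 58 passed in H3K27me3, where 0.335% did. At an unadjusted p under 0.05 there were 2 members in H3K4me3 (5.9% of all genes, and 3.64% of members) and 2 in H3K27me3 (12.9% of all genes, and 3.45% of members). DESeq2 and limma-voom likewise passed 0 members in either mark, with 3 and 2 members under an unadjusted p of 0.05 in H3K4me3 and 1 each in H3K27me3. In H3K27me3 DESeq2 gave no adjusted p to 25 of the 58. Single libraries weighed on the unadjusted counts. In H3K4me3 the count was 10 of 56 without Lgr5-Tspan8hi replicate 2, 5 of 57 without Lgr5+Tspan8hi replicate 1, 1 to 3 with any other library left out, 4 with loess offsets against mean abundance and 1 with library totals alone. In H3K27me3 it was 4 without Lgr5-Tspan8hi replicate 2, 0 to 2 with any other library left out, and 6 of 58 on non-overlapping stretches.

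The member with the smallest p in H3K4me3 between Tspan8hi and Tspan8- cells was Pcdhac2, whose library values are given above. It averaged 48.7 ± 9.02 CPM in Tspan8hi and 65.7 ± 13.3 CPM in Tspan8- libraries (SD, n = 4 each; log2 fold change -0.42 ± 0.17 SE, edgeR adjusted p = 0.733), and the libraries overlapped, with 61.1 CPM as the highest Tspan8hi value and 57.6 CPM as the lowest Tspan8- value. Pcdhga11 had 24.0 and 16 CPM in Lgr5+Tspan8hi and 18.7 and 19.7 CPM in Lgr5-Tspan8hi, against 14.2 and 11 CPM in Lgr5+Tspan8- and 12.2 and 12.2 CPM in Lgr5-Tspan8- libraries (log2 fold change 0.64 ± 0.32 SE, edgeR adjusted p = 0.837). Its Tspan8hi libraries all lay above its Tspan8- libraries, as was so in either direction for 2 of 55 members (Pcdhga11 and, the other way, Pcdhb17) and 3.08% of all genes. Pcdhgb5 had 12.4 and 5.94 CPM in Lgr5+Tspan8hi and 2.28 and 4.73 CPM in Lgr5-Tspan8hi, against 8.75 and 8.22 CPM in Lgr5+Tspan8- and 15.2 and 12.2 CPM in Lgr5-Tspan8- libraries (log2 fold change -0.92 ± 0.47 SE, edgeR adjusted p = 0.847).

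In H3K27me3 counted over whole genes, the smallest p values between Tspan8hi and Tspan8- cells were those of beta genes. Pcdhb4 had 7.65 and 2.99 CPM in Lgr5+Tspan8hi and 1.88 and 3.55 CPM in Lgr5-Tspan8hi, against 8.94 and 5.43 CPM in Lgr5+Tspan8- and 6.24 and 8.56 CPM in Lgr5-Tspan8- libraries (log2 fold change -0.88 ± 0.35 SE, edgeR adjusted p = 0.275). Pcdhb21 had 7.98 and 2.61 CPM in Lgr5+Tspan8hi and 13.2 and 7.42 CPM in Lgr5-Tspan8hi, against 4.77 and 4.65 CPM in Lgr5+Tspan8- and 4.39 and 3.15 CPM in Lgr5-Tspan8- libraries (log2 fold change 0.80 ± 0.36 SE, edgeR adjusted p = 0.330). For both genes the groups overlapped.

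On non-overlapping stretches 4 of the 14 alpha stretches had an unadjusted p under 0.05 between Tspan8hi and Tspan8- cells, all with the higher values in Tspan8hi cells and 2 of them with a smaller p than Pcdhb4. Over all 58 units 6 had such a p, and in the fit over whole genes 12.9% of all genes did. The stretch of Pcdha7 had 1.06 and 1.33 CPM per kb in Lgr5+Tspan8hi and 0.949 and 1.11 CPM per kb in Lgr5-Tspan8hi, against 0.809 and 1.18 CPM per kb in Lgr5+Tspan8- and 0.669 and 0.499 CPM per kb in Lgr5-Tspan8- libraries (log2 fold change 0.54 ± 0.20 SE, edgeR adjusted p = 0.224). That of Pcdha1 had 2.22 and 2.20 CPM per kb in Lgr5+Tspan8hi and 2.28 and 1.63 CPM per kb in Lgr5-Tspan8hi, against 1.94 and 1.24 CPM per kb in Lgr5+Tspan8- and 1.19 and 1.20 CPM per kb in Lgr5-Tspan8- libraries (0.57 ± 0.21 SE, edgeR adjusted p = 0.229). Both overlapped between Tspan8hi and Tspan8-. The stretches of Pcdha8 and Pcdha2 had log2 fold changes of 0.59 ± 0.24 SE and 0.54 ± 0.24 SE. Of the 14 alpha stretches 9 lay above 0, and of the 22 gamma stretches 13 did, with 0 under an unadjusted p of 0.05.

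Pcdhb20 had 5.82 and 5.23 CPM in Lgr5+Tspan8hi and 0.377 and 4.48 CPM in Lgr5-Tspan8hi, against 7.74 and 6.40 CPM in Lgr5+Tspan8- and 6.01 and 5.11 CPM in Lgr5-Tspan8- libraries (log2 fold change -0.64 ± 0.38 SE, edgeR adjusted p = 0.511). The low value is 1 read in Lgr5-Tspan8hi replicate 1, the library that stood apart. With replicate 2 of that subpopulation left out, so that this library alone stood for it, Pcdhb20 passed at an edgeR adjusted p of 0.0332.

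By cluster, the median log2 fold change between Tspan8hi and Tspan8- cells in H3K4me3 was -0.38 in alpha (12 genes, 11 below 0), -0.19 in beta (21 genes, 13 below 0) and -0.03 in gamma (22 genes, 13 below 0), beside 0.00 over all genes. The median SE of a single gene was 0.77, 0.61 and 0.42 in these clusters, and the medians themselves were not tested. With loess offsets against mean abundance the alpha median was -0.04 and the beta median 0.08. The gamma median was 0.05 with those offsets, 0.07 without Lgr5-Tspan8hi replicate 1 and -0.29 without replicate 2 of that subpopulation. In H3K27me3 the medians were -0.02, 0.19 and 0.07 in alpha, beta and gamma, beside 0.02 over all genes; the alpha median was 0.05 on non-overlapping stretches and with loess offsets against mean abundance.

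Between Lgr5+ and Lgr5- cells, 0 of 55 members passed in H3K4me3 (0.0421% of all genes passed) and 0 of 58 in H3K27me3 (0.0407%). In H3K4me3, 1 of 55 members had an unadjusted p under 0.05 by edgeR (4.98% of all genes), and 1 each by DESeq2 and limma-voom. Without Lgr5-Tspan8hi replicate 2 the count was 6 of 56, and with any other library left out it was 0. The 1 member was Pcdha8, with 6.85 and 6.88 CPM in Lgr5+Tspan8hi and 4.74 and 3.42 CPM in Lgr5+Tspan8-, against 0 and 1.97 CPM in Lgr5-Tspan8hi and 2.33 and 2.74 CPM in Lgr5-Tspan8- libraries (log2 fold change 1.68 ± 0.83 SE, edgeR adjusted p = 0.971). Its Lgr5+ libraries all lay above its Lgr5- libraries, which held for no other member and for 2.84% of all genes in either direction.

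The next genes by p were Pcdhgb8 and Pcdhb8. Pcdhgb8 had 11.6 and 19.1 CPM in Lgr5+Tspan8hi and 8.75 and 11.6 CPM in Lgr5+Tspan8-, against 25.1 and 16.9 CPM in Lgr5-Tspan8hi and 17.5 and 12.7 CPM in Lgr5-Tspan8- libraries (log2 fold change -0.50 ± 0.33 SE, edgeR adjusted p = 0.979). Pcdhb8 had 9.85 and 6.57 CPM in Lgr5+Tspan8hi and 2.92 and 9.59 CPM in Lgr5+Tspan8-, against 5.01 and 3.15 CPM in Lgr5-Tspan8hi and 5.25 and 2.74 CPM in Lgr5-Tspan8- libraries (log2 fold change 0.82 ± 0.67 SE, edgeR adjusted p = 0.988). Both overlapped between Lgr5+ and Lgr5-. The cluster medians were 0.15 in alpha, 0.20 in beta and 0.05 in gamma, beside 0.00 over all genes, and were not tested. The alpha median was -0.22 without Lgr5+Tspan8- replicate 2, and the beta median was -0.05 without Lgr5+Tspan8hi replicate 1.

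In H3K27me3 the alpha cluster lay a little higher in Lgr5+ cells. Its density was 1.65 and 1.63 CPM per kb in Lgr5+Tspan8hi and 1.64 and 1.55 CPM per kb in Lgr5+Tspan8-, against 1.41 and 1.48 CPM per kb in Lgr5-Tspan8hi and 1.45 and 1.31 CPM per kb in Lgr5-Tspan8- libraries. The means were 1.62 ± 0.0441 in Lgr5+ and 1.41 ± 0.0737 CPM per kb in Lgr5- libraries (SD, n = 4 each), and the libraries did not overlap. Gamma leaned the other way with overlap, at 1.23 ± 0.0672 in Lgr5+ and 1.33 ± 0.123 CPM per kb in Lgr5- libraries. Beta had 1.79 ± 0.109 in Lgr5+ and 1.73 ± 0.122 CPM per kb in Lgr5- libraries.

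Gene by gene, 12 of 58 members had an unadjusted p under 0.05 by edgeR, all of them alternate alpha genes with the higher values in Lgr5+ cells, where 7.19% of all genes had such a p and 3.08% with the higher values in Lgr5+ cells. Likewise 13 of 58 members (the 12 alpha genes and Pcdhb2) had all Lgr5+ libraries above all Lgr5- libraries, against 2.1% of all genes. These 12 counts are nested, so they are largely the same reads counted 12 times and not 12 observations. Pcdha6 had the smallest p, with 342 and 347 CPM in Lgr5+Tspan8hi and 345 and 339 CPM in Lgr5+Tspan8-, against 276 and 309 CPM in Lgr5-Tspan8hi and 312 and 274 CPM in Lgr5-Tspan8- libraries (log2 fold change 0.23 ± 0.09 SE, edgeR adjusted p = 0.558). Pcdha7 and Pcdha5, which share most of those reads, had log2 fold changes of 0.22 each (adjusted p = 0.591 and 0.598). DESeq2 had 12 and limma-voom 14 members under an unadjusted p of 0.05, and neither passed any. With loess offsets against reads per kb 24 members had such a p, and 0 passed. Alpha has 14 genes, so this count also holds members of other clusters. In the main fit all 22 gamma genes, whose counts are nested too, had log2 fold changes below 0. The share of all genes with such a p under these other settings is not given here.

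On non-overlapping stretches the same comparison had 11 of 14 alpha stretches above 0, with a median log2 fold change of 0.20, and 2 of 14 with an unadjusted p under 0.05, those of Pcdha7 (0.50 ± 0.20 SE) and Pcdha11 (0.40 ± 0.18 SE). The smallest edgeR adjusted p among the alpha stretches was 0.604. In the fit over whole genes 7.19% of all genes had an unadjusted p under 0.05. Of the 22 gamma stretches 15 lay below 0, with a median of -0.16, and 1 had an unadjusted p under 0.05, that of Pcdhga9 (-0.78 ± 0.25 SE, edgeR adjusted p = 0.442). The median over all genes was -0.01. Over all 58 units 3 had an unadjusted p under 0.05 on stretches, and 1 to 8 did with a single library left out.

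Single libraries weighed on the count of 12. It was 2 without Lgr5-Tspan8hi replicate 1, 3 without Lgr5+Tspan8hi replicate 2, 5 without Lgr5+Tspan8hi replicate 1, 6 without Lgr5+Tspan8- replicate 1 and 19 without Lgr5-Tspan8- replicate 2, while the alpha median stayed between 0.18 and 0.27 in every such fit. Summed H3K27me3 over 10 luminal marker genes moved in the same direction, at 748 to 787 CPM in Lgr5+ and 678 to 736 CPM in Lgr5- libraries, with none of the 10 at 0. Gene by gene this list did not move up, with a median log2 fold change of -0.02. By edgeR 1 of its 10 genes had an unadjusted p under 0.05 (7.19% of all genes). Sums over the basal, neural, fibroblast, endothelial and immune lists overlapped between Lgr5+ and Lgr5- libraries. The part of the luminal sum in the alpha difference was not tested.

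**Figure D4:**
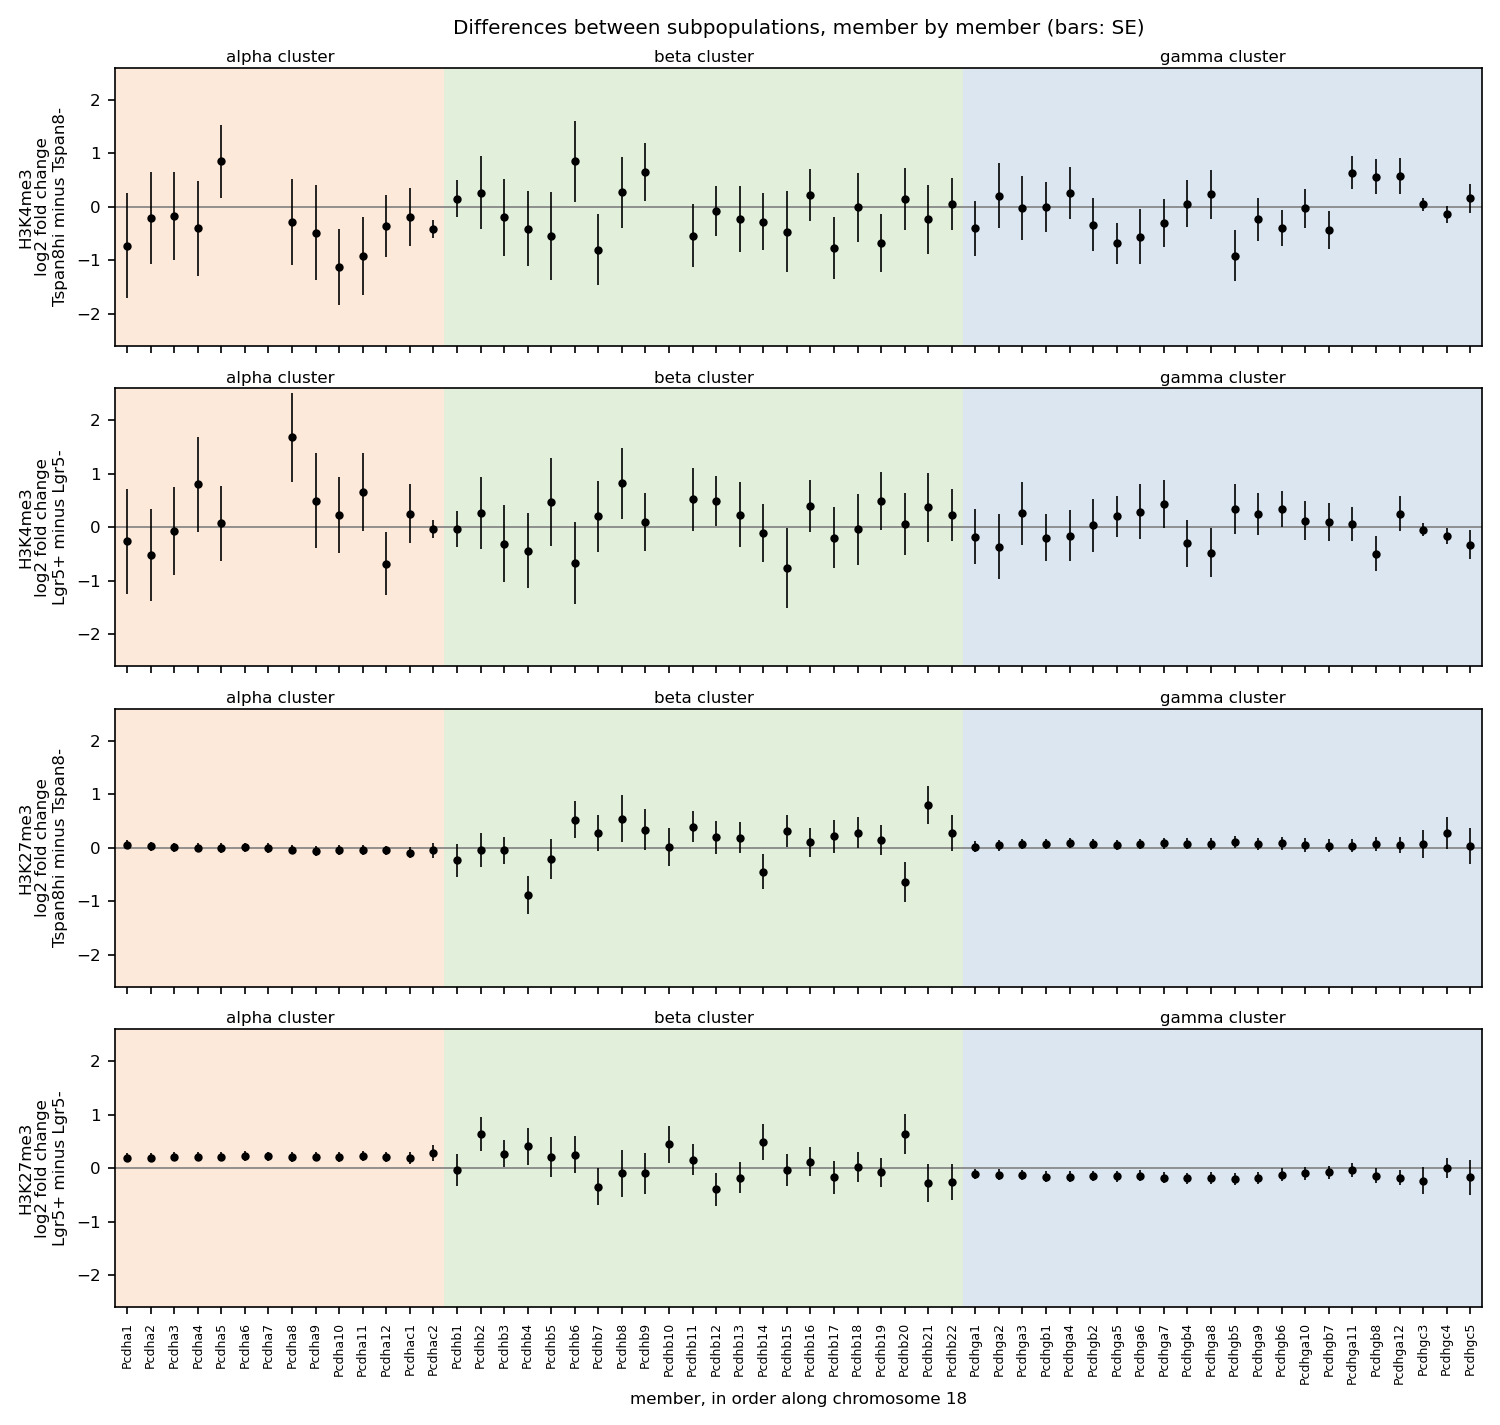
Log2 fold change of each tested member with its SE, for Tspan8hi minus Tspan8- and Lgr5+ minus Lgr5- in each mark (4 panels, vertical axis in log2 units). In H3K27me3 the alpha and gamma points run almost level because neighbouring counts are nested; the alpha points for Lgr5 lie between 0.19 and 0.28, and 0 members passed in any panel.

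Whether the effect of Tspan8 differed between Lgr5+ and Lgr5- cells was tested as an interaction, in which 0 of 55 members passed in H3K4me3 (0% of all genes) and 0 of 58 in H3K27me3 (0.00905%), by edgeR, DESeq2 and limma-voom. At an unadjusted p under 0.05 edgeR had 3 members in H3K4me3 (4.2% of all genes), namely Pcdhb5, Pcdhgb5 and Pcdhgc5, and 0 in H3K27me3 (5.5%). DESeq2 had 3 and 0, and limma-voom 0 and 0. Without Lgr5-Tspan8hi replicate 2 edgeR had 10 in H3K4me3 and 5 in H3K27me3, and without Lgr5-Tspan8- replicate 1 it had 0 in H3K4me3. With any other library left out it had 1 to 4 in H3K4me3, and in H3K27me3 the remaining omissions gave 0 to 2. The test for any difference among the 4 subpopulations passed 0 members in H3K4me3 (0.0894% of all genes) and 0 in H3K27me3 (0.529%), with 1 member of each mark under an unadjusted p of 0.05 (5.27% and 11.1% of all genes). In that test DESeq2 had 1 and 0 such members and limma-voom 1 and 1. In H3K4me3 edgeR had 7 without Lgr5-Tspan8hi replicate 2 and 0 to 3 with any other library left out. In H3K27me3 it had 12 with loess offsets against reads per kb, 6 on non-overlapping stretches and 8 without Lgr5-Tspan8- replicate 1. It had 4 when Lgr5-Tspan8hi replicate 2 was left out and 0 to 2 for each of the remaining libraries.

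The C-type genes varied in how well a difference could be measured. For Pcdhgc3 the H3K4me3 log2 fold change was 0.05 ± 0.12 SE between Tspan8hi and Tspan8- cells (edgeR adjusted p = 0.983) and -0.05 ± 0.12 SE between Lgr5+ and Lgr5- cells (adjusted p = 1.000 when rounded). For Pcdhgc4 these were -0.14 ± 0.15 and -0.17 ± 0.15. For Pcdhgc5, with fewer reads, they were 0.16 ± 0.28 and -0.33 ± 0.28, and for Pcdhac1 -0.19 ± 0.55 and 0.25 ± 0.55, an error close to the median SE of all tested members.

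Other protocadherins and cadherins were looked at for comparison. Of 12 protocadherin genes outside the clusters, 0 passed in either mark between Tspan8hi and Tspan8- or between Lgr5+ and Lgr5- cells by edgeR, with 0 and 1 under an unadjusted p of 0.05 in H3K4me3 and 3 and 0 in H3K27me3; 9 of the 12 lay above the median gene in each mark, against 3 of the 58 clustered members in H3K4me3 and 55 of 58 clustered units in H3K27me3. Pcdh7 had 210.0 ± 12.1 CPM and Pcdh1 112 ± 8.83 CPM of H3K4me3 with H3K27me3 below the median gene, as at Pcdhgc3, while Pcdh8 had 24.0 ± 7.37 CPM of H3K4me3 and 10.4 ± 2.72 CPM per kb of H3K27me3 (SD, n = 8), more than any clustered unit. Their smallest adjusted p was 0.106, for H3K27me3 of Pcdh11x between Tspan8hi and Tspan8- cells (log2 fold change -0.30 ± 0.08 SE).

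Of 10 classical and desmosomal cadherin genes 0 passed by edgeR, with 1 and 0 under an unadjusted p of 0.05 for Tspan8 and Lgr5 in H3K4me3, the same numbers in H3K27me3, and a smallest adjusted p of 0.118 for H3K27me3 of Cdh2 between Tspan8hi and Tspan8- cells (log2 fold change 0.36 ± 0.10 SE). Among 19 regulators of the clusters 0 passed by edgeR either, with 1 and 1 under an unadjusted p of 0.05 for Tspan8 and Lgr5 in H3K4me3 (18 genes tested) and 2 and 0 in H3K27me3. Smchd1, a chromatin protein that silences the clusters in other tissues, had 110 ± 7.09 CPM of H3K4me3, and Ctcf, which binds their promoters, had 114 ± 15.8 CPM, both above 93% of genes. Of the 19 regulators 17 lay above the median gene in H3K4me3. The lowest was Dnmt1 at 1.69 ± 1.32 CPM (SD, n = 8), above 21.3% of genes. The smallest adjusted p among regulators was 0.234, for H3K27me3 of the cohesin subunit gene Smc1a between Tspan8hi and Tspan8- cells (log2 fold change -0.33 ± 0.12 SE).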

How the data were processed

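For each of 16 immunoprecipitated libraries the authors deposited raw read counts per Entrez gene, made with featureCounts on mm10, per the submitters' processing notes. Neither the aligner nor the annotation or counted region is given in the sources used here. Symbols and coordinates came from RefSeq of GRCm38.p6, which matched 25189 of 27080 identifiers; the 58 members and all lists were chosen with earlier results of these data known. Each mark was fitted on its 8 libraries with edgeR 4.0.16 in R 4.3.3: filterByExpr (19009 genes kept for H3K4me3, 22099 for H3K27me3), TMM factors, a mean per subpopulation, robust quasi-likelihood F test, and Benjamini-Hochberg adjustment over all genes of a mark, with 4 residual degrees of freedom and a biological coefficient of variation of 16.0% and 16.8%. The scripts were tested on simulated data. Standard errors came from the F statistic. H3K27me3 was also fitted with the alpha and gamma counts replaced by differences between neighbouring genes.

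Other settings were DESeq2 1.42.0, limma-voom (limma 3.58.1), RLE factors, library totals, loess offsets against mean abundance, a block for the replicate number, no filter, a minimum mean of 5 CPM, and each library left out. Loess offsets against reads per kb, the non-overlapping stretches, and libraries left out of those and of the cluster levels were chosen after seeing the data. Named with library values were the C-type genes, the highest and lowest member of each cluster and mark, the 3 smallest p of each averaged effect and mark, and any member past the threshold; of comparison lists the smallest p, of flanking genes the 5 nearest on each side; the stretch divisions, other members and the other list genes were named after their values were seen. Pairs of replicate libraries differed by 2.90 to 5.43 times the sampling noise (chi-square per degree of freedom), so none was counted as a duplicate.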

Additional observations from a re-analysis of the deposited data

Results flagged for a closer look

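In 9 of 69 sets of 4 or 8 libraries the highest or lowest library lay farther from the rest than Dixon's 95% critical value. For independent sets chance alone gives about 1 in 20. These sets share libraries and genes, so the count of 9 cannot be set against that rate. The alternate alpha genes averaged 5.48 CPM in Lgr5+Tspan8- replicate 2, the highest of the 4 Lgr5+ libraries. The C-type alpha genes averaged 47.6 CPM in the same library, far above the other Tspan8- libraries and all 8 libraries, and 25.8 CPM in Lgr5-Tspan8hi replicate 1, the lowest of the Lgr5- libraries. Pcdhac2 itself had 85.6 CPM in Lgr5+Tspan8- replicate 2, far above its other 7 libraries. That library had the lowest H3K4me3 total, at 1472251 counts.

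In H3K27me3 the alpha cluster had 1.55 CPM per kb in Lgr5+Tspan8- replicate 2, the lowest of the 4 Lgr5+ libraries, which otherwise lay between 1.63 and 1.65. The beta cluster had 1.88 CPM per kb in Lgr5+Tspan8- replicate 1, the highest of the Tspan8- libraries. H3K4me3 of the beta genes averaged 4.85 CPM in Lgr5-Tspan8hi replicate 1, the lowest of 8, and H3K27me3 of Pcdhb20 was 0.377 CPM there, from 1 read. The cause of these values was not tested.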

How the results depend on the processing

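Of 172 recomputed counts of passing members 167 were 0, as were the counts themselves. The exceptions leave out Lgr5-Tspan8hi replicate 2, so that the library that stood apart alone stands for its subpopulation and is assumed to vary like the others: in H3K27me3, 1 member (Pcdhb20) passed for Tspan8 and 1 for any difference, and on non-overlapping stretches 1 passed for Tspan8, 1 for the interaction (Pcdhga4) and 2 for any difference. With single libraries left out the counts were thus 0 to 1 for Tspan8 and for any difference in H3K27me3, on non-overlapping stretches 0 to 1 for Tspan8 and the interaction and 0 to 2 for any difference, and 0 for Lgr5 and in H3K4me3. The replicate number as a block passed 0 members in every comparison; same-numbered libraries deviated together with correlations of only -0.03 to 0.14, so the numbers were not taken to pair the libraries. Of 210 recomputed cluster medians 197 moved by less than 1 SD between replicate libraries of the cluster level. In H3K4me3 the beta median for Tspan8 was 0.083 with loess offsets against mean abundance, -0.057 with a mean of at least 5 CPM and -0.25 to -0.042 with single libraries left out; under the same omission the gamma median was -0.29 to 0.074, and for Lgr5 the alpha median was -0.22 to 0.44 and the beta median -0.049 to 0.32. In H3K27me3 the alpha median for Tspan8 was 0.045 on non-overlapping stretches and 0.053 with loess offsets against mean abundance, the beta median was 0.30 with loess offsets against reads per kb and 0.059 to 0.25 with single libraries left out, and the beta median for Lgr5 was -0.041 to 0.13. The cause of these shifts was not tested. All 80 recomputed cluster levels stayed within 1 SD, and of 206 values of single members 1 crossed the threshold (Pcdhb20, log2 fold change -2.08) and 0 changed sign while past it. Low H3K4me3 counts at alternate isoforms limit what could be detected there.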
